A study of Mus musculus with 6 samples.

Results

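The arginine and nitric oxide enzymes comprised 10 genes of the 55335 in the expression table: the arginases *Arg1* and *Arg2*, the inducible nitric oxide synthase *Nos2*, *Ass1* and *Asl*, the arginine transporters *Slc7a1* and *Slc7a2*, *Gch1*, *Odc1* and *Oat*. They were chosen by their role in the competition of *Arg1* and *Nos2* for arginine, with the differences between these same libraries already known, so their differences are described here and not tested. RNA-seq was performed on BMDMs (bone marrow-derived macrophages, here marrow cells matured in M-CSF) after 24 h in direct co-culture with neutrophils. The neutrophils were taken by magnetic sorting from spinal cord lesions at 3 days post-injury (dpi) of *Cd177* WT or *Cd177* knockout (KO) mice. The paper names FACS-sorted BMDMs for this co-culture system in its experiments with inhibitors. Its RNA-seq methods name no sort of the macrophages. The BMDMs of every library came from *Cd177* WT mice, so the groups differed by label only in the genotype of the neutrophils. There were 3 libraries per group and none of BMDMs cultured alone, and no label tied a library to an animal or to a separate culture. The p-values below therefore measure the spread between these libraries, which may be technical.

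Arginine is shared by enzymes that lead to different products. Arginase splits it into urea and ornithine, which feeds the polyamines through ornithine decarboxylase and proline and glutamate through ornithine aminotransferase. Inducible nitric oxide synthase turns it into nitric oxide and citrulline and needs tetrahydrobiopterin (BH4) as a cofactor, and citrulline can be rebuilt into arginine by argininosuccinate synthase and lyase. In mouse macrophages *Nos2* is a common marker of inflammatory activation and *Arg1* of alternative activation, although both can be induced together.

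The libraries labelled KO had far less mRNA of both arginases, of *Nos2*, of *Ass1*, of *Slc7a2* and of *Gch1*. *Arg1* was 463.9-fold lower, *Ass1* 33.2-fold, *Arg2* 24.0-fold, *Slc7a2* 15.3-fold and *Gch1* 3.83-fold in mean FPKM (the number of sequenced fragments divided by transcript length and by library total, a level per length), and *Nos2* was listed at 0 in 2 of the 3 libraries. *Asl*, *Slc7a1*, *Odc1* and *Oat* overlapped between the groups. Thus 6 of the 10 genes were lower in every library labelled KO than in every library labelled WT, a pattern seen in 14.4% of the 13367 tested genes, and 0 were higher in this way, against 37.5% of the tested genes. The median difference of the 10 genes, KO minus WT in log2(FPKM + 0.5), was -2.51, and that of all tested genes was 0.19. This scale understates the change of low genes. A gene was tested where its 6 libraries averaged 0.5 FPKM or more. All 10 genes passed this limit, but *Arg1*, *Arg2* and *Nos2* had means below it in the libraries labelled KO and passed through their WT level.

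**Figure D1:**
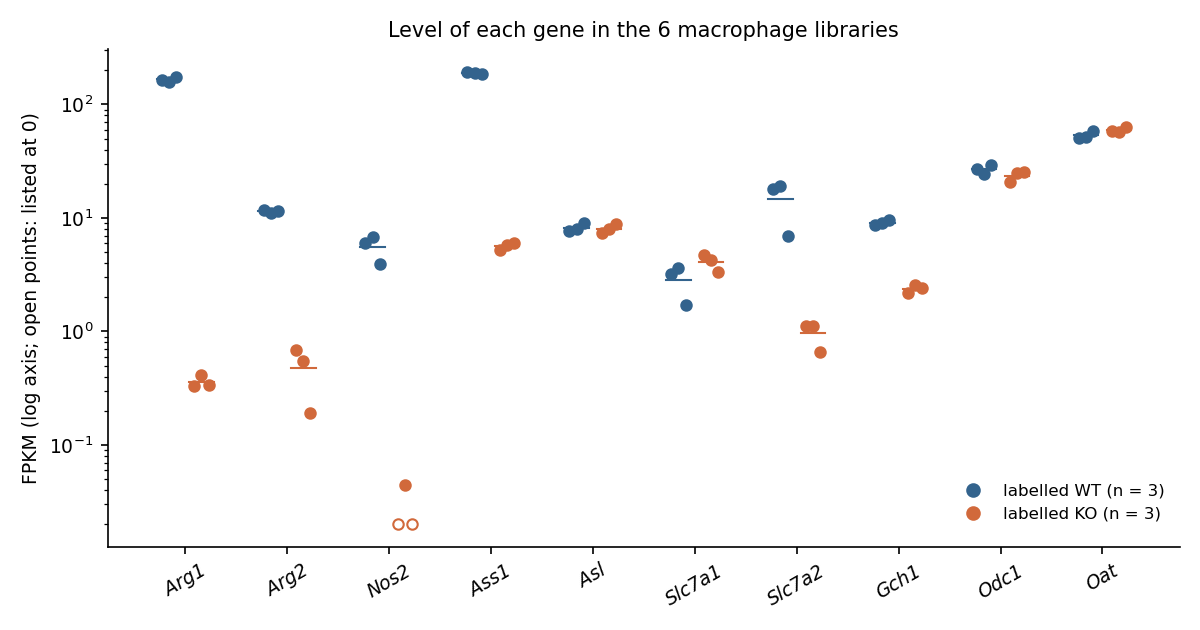
FPKM of each of the 10 genes in the 6 libraries (log axis), with 1 point per library in replicate order, blue for libraries labelled WT and orange for those labelled KO, a line at each mean where drawn, and open points at the foot for values listed at 0. *Arg1* lay between 157.6 and 176.0 FPKM in WT and between 0.329 and 0.409 FPKM in KO, while the points of *Asl*, *Odc1* and *Oat* overlapped.

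The identity of the libraries and their purity bear on every result. *Cd177*, a neutrophil surface glycoprotein, was at 0.544, 0.309 and 0.521 FPKM in WT replicates 1, 2 and 3 and at 1.79, 1.84 and 2.28 FPKM in KO (log2 difference 1.37, SE 0.16, adjusted p = 0.000827 by limma). This direction goes against the labels, but the sequenced BMDMs carry an intact gene, so *Cd177* in these libraries cannot check the labels. The labels were not tested against other measures. The groups are therefore named by label throughout. Of 16 neutrophil markers, 13 were tested, 11 were higher and 1, *Mmp8*, was lower in KO. The summed level of the 16 was between 202.7 and 262.4 FPKM in WT and between 559.9 and 574.2 FPKM in KO. Most of it was *S100a8* (means 64.9 FPKM in WT and 104.1 FPKM in KO) and *S100a9* (90.5 and 234.4 FPKM). These sums therefore say little about the other neutrophil markers. *Ly6g* was listed at 0 in every library labelled WT and reached 0.66 FPKM in KO. The 8 macrophage markers were all detected and summed to between 6628 and 7990 FPKM in WT and between 7230 and 7917 FPKM in KO. Most of both sums was *Lyz2*, with means of 4922 FPKM in WT and 6144 FPKM in KO, so the sums say little about the other markers. Of these 8, 2 rose (*Mertk* by 0.72 and *Adgre1* by 0.30 on the log2 scale), 2 fell (*Cd14*, -3.33, and *Fcgr1*, -1.83) and 4 did not pass the limit of 0.05 on the adjusted p. The 6 B and T cell markers summed to at most 0.431 FPKM in WT and to between 9.51 and 10.5 FPKM in KO, nearly all of it *Ighm*. The part of neutrophil and B cell RNA in the differences was not tested. Fewer cells of a type and less RNA per cell cannot be told apart in such bulk samples.

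Promoter sequences were at hand for 5 of the 10 genes, in a RefSeq table on GRCm38.p6, and those of *Ass1*, *Gch1* and *Oat* are shown, since 2 of these genes were lower without overlap and the third was not. Each run gives the 250 bases before the transcription start, read 5′ to 3′ on the strand of the gene, with matches to searched motifs in capitals.
Ass1: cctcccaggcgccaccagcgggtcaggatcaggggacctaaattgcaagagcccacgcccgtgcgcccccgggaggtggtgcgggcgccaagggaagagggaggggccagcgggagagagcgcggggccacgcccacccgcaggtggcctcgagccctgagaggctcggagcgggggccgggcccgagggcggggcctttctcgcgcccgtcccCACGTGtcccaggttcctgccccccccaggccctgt
Gch1: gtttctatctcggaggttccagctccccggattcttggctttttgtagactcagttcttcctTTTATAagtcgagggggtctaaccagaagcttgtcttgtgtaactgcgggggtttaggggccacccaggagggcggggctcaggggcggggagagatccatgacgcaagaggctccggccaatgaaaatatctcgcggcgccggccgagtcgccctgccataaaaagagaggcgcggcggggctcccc
Oat: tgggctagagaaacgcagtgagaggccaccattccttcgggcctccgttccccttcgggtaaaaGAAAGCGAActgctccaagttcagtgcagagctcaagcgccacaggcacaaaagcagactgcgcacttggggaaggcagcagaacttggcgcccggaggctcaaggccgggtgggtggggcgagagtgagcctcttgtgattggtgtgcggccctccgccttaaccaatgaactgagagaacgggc
The *Ass1* run lies at chr2:31470020-31470269 on the plus strand, and GENCODE places the first base of the gene within it, at 31470207. The *Gch1* run lies at chr14:47189414-47189663 and the *Oat* run at chr7:132576399-132576648, both on the minus strand. The searched motifs, on both strands, were TATAAA (the TATA box), CACGTG (an E-box), TTCNNNGAA (a GAS element, the site type of STAT factors), GAAANNGAA (the core of an interferon-stimulated response element), GGGNNTTCC (resembling a kappaB site) and TGACGTCA (a cAMP response element). The *Ass1* run held the E-box 36 bases before the RefSeq start, a motif found in 6.02% of 32851 promoters of the same length. This E-box lies after the first base that GENCODE gives for *Ass1*, and so within the gene as placed there. The *Gch1* run held TATAAA on the opposite strand, 188 bases before its start, as did 12.4% of promoters on either strand. The *Oat* run held GAAANNGAA 186 bases before its start, and 7.13% of promoters hold it. The run of *Odc1* held none of the 6 motifs. *Slc7a1* has an upstream and a downstream start in the table, and the downstream run held TATAAA and TTCNNNGAA, the latter in 7.02% of promoters. The shares were 4.98% for GGGNNTTCC and 1.55% for TGACGTCA, neither of which was in any of these runs. These matches describe letters and not occupied sites. *Arg1*, *Arg2*, *Nos2*, *Asl* and *Slc7a2* are the other genes.

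*Arg1* (ENSMUSG00000019987, GRCm38, chr10:24915221-24927484, minus strand), the cytosolic arginase, was at 165.8, 157.6 and 176.0 FPKM in the libraries labelled WT. It was at 0.329, 0.409 and 0.338 FPKM in those labelled KO. The means were 166.5 ± 9.23 and 0.359 ± 0.0439 FPKM (SD, n = 3 each). Within each group the libraries were close together, and the groups were separated by far more than that spread. If the smallest step of the values is 1 fragment, the KO values rest on about 9, 12 and 9 fragments against 4212 to 4685 fragments in WT. The log2 difference was -7.60 (SE 0.09), the second lowest of the 13367 tested genes.

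*Arg2* (ENSMUSG00000021125, chr12:79130777-79156301, plus strand), the mitochondrial arginase, was at 11.7, 11.1 and 11.6 FPKM in WT and at 0.687, 0.553 and 0.189 FPKM in KO. The 3 libraries labelled WT were almost equal, and the 3 labelled KO were low and spread widely, on about 17, 16 and 5 fragments. The log2 difference was -3.65 (SE 0.20), at place 47 from the largest fall. The exons of *Arg2* overlap those of *Vti1b* and *Gm48780* on the other strand, and the sources used here do not say whether counting used strand. *Vti1b*, a vesicle fusion protein, was at 30.4, 28.6 and 40.4 FPKM in WT and at 41.7, 43.4 and 47.1 FPKM in KO, so it did not move with *Arg2*. The level of *Arg1* was 14.2, 14.2 and 15.1 times that of *Arg2* in WT and 0.479, 0.74 and 1.79 times in KO. The low KO levels thus left neither arginase above the other in all 3 libraries.

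*Nos2* (ENSMUSG00000020826, chr11:78920787-78960254, plus strand), which makes nitric oxide, was at 5.99, 6.86 and 3.94 FPKM in the libraries labelled WT. KO replicates 1 and 3 listed it at 0, and KO replicate 2 at 0.0444 FPKM. WT replicate 3 was the lowest of its group, and every library labelled WT was above every library labelled KO. KO replicate 2 rests on about 4 fragments, and the other two have none, against 298 to 520 fragments in WT. The log2 difference was -3.53 (SE 0.20), with no fold given against a value listed at 0, and ranged from -5.62 to -2.67 with the pseudocount and the libraries used. In WT, *Arg1* was 27.7, 23.0 and 44.7 times the level of *Nos2*. In KO replicate 2 it was 9.22 times that level. *Nos1* and *Nos3*, the neuronal and endothelial synthases, named after their values were seen, did not exceed 0.0509 FPKM in any library.

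*Ass1* (ENSMUSG00000076441, chr2:31470207-31520672, plus strand), which joins citrulline to aspartate and limits the return of citrulline to arginine, was the most abundant of the 10 genes in WT. It was at 193.7, 187.9 and 183.9 FPKM in WT, but at 5.23, 5.75 and 6.03 FPKM in KO. The means were 188.5 ± 4.91 and 5.67 ± 0.406 FPKM (SD, n = 3 each), and the log2 difference of -4.94 (SE 0.08) took place 17 from the largest fall. *Asl* (ENSMUSG00000025533, chr5:130011258-130029247, minus strand), the lyase of the next step, was at 7.66, 7.92 and 9.03 FPKM in WT and at 7.30, 8.03 and 8.82 FPKM in KO. Its groups overlapped, with a log2 difference of -0.03 (SE 0.11). The level of *Ass1* was 25.3, 23.7 and 20.4 times that of *Asl* in WT and 0.717, 0.716 and 0.684 times in KO. The synthase was thus above the lyase in every library labelled WT and below it in every library labelled KO.

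*Slc7a2* (ENSMUSG00000031596, chr8:40862396-40922308, plus strand), the inducible cationic amino acid transporter CAT2, was at 18.0, 19.2 and 6.94 FPKM in WT and at 1.11, 1.12 and 0.658 FPKM in KO. Replicate 3 was the lowest in both groups, but the groups did not overlap. The log2 difference was -3.27 (SE 0.38), at place 67 from the largest fall, and -3.73 to -2.90 under the alternatives. Exons of *Gm26584* on the other strand overlap those of *Slc7a2*. *Slc7a1* (ENSMUSG00000041313, chr5:148327410-148399904, minus strand), the widely expressed transporter CAT1, was at 3.21, 3.63 and 1.73 FPKM in WT and at 4.75, 4.29 and 3.33 FPKM in KO. Its groups overlapped through WT replicate 2 and KO replicate 3, with a log2 difference of 0.50 (SE 0.25). The level of *Slc7a2* was 5.61, 5.3 and 4.02 times that of *Slc7a1* in WT and 0.233, 0.261 and 0.198 times in KO, so the more abundant transporter differed between the groups.

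Replicate 3 also stood apart over all genes. The second principal component (13.5% of the variance, after 70.8% for the first, which separated the groups) set replicate 3 of each group apart. In WT, replicate 3 minus the mean of replicates 1 and 2 had a log2 median of 0.23 in genes with a longest transcript under 2000 bases and of -0.34 in genes of 5000 bases or more, and the KO medians were 0.08 and -0.17. *Slc7a2* (7910 bases) deviated by -1.36 in WT and -0.48 in KO, *Slc7a1* (7179 bases) by -0.82 and -0.39, and *Nos2* (4192 bases) by -0.64 in WT. *Arg1* (1477 bases) deviated by 0.12 and *Ass1* (1696 bases) by -0.05 in WT. The 10 genes did not all follow length, since *Arg2*, the shortest at 1428 bases, had the largest deviation in KO (-0.70, on about 5 fragments in replicate 3), and *Nos2* deviated by -0.06 in KO. Without both libraries numbered 3, the same count of 6 genes was lower without overlap, and *Slc7a1* and *Oat* were then higher without overlap. Groups of fewer libraries separate more easily, and the share of all tested genes without overlap was not counted in this setting. The 2 genes are therefore not read as a result.

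*Gch1* (ENSMUSG00000037580, chr14:47153895-47189413, minus strand), the first enzyme of BH4 synthesis, was at 8.70, 9.06 and 9.54 FPKM in WT and at 2.20, 2.54 and 2.40 FPKM in KO. The means were 9.10 ± 0.422 and 2.38 ± 0.172 FPKM (SD, n = 3 each). Every library labelled KO was far below the lowest one labelled WT, with a log2 difference of -1.74 (SE 0.09). Among the 6 genes without overlap it differed least. Of the 4 whose groups overlapped, the next in signed order was *Odc1* at -0.19, and the largest difference in size was that of *Slc7a1* at 0.50.

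*Odc1* (ENSMUSG00000011179, chr12:17544794-17551505, plus strand), ornithine decarboxylase and the entry to the polyamines, was at 26.9, 24.5 and 29.5 FPKM in WT and at 20.9, 24.7 and 25.2 FPKM in KO. The groups overlapped only through WT replicate 2. After median-of-ratios or upper-quartile scaling between libraries they no longer did, so that 7 of the 10 genes were then lower without overlap. The share of all tested genes lower without overlap was not counted after scaling. Over all tested genes, the limma calls lower in KO rose from 1408 to 2221 after median-of-ratios and to 1652 after upper-quartile scaling. The log2 difference of *Odc1* was -0.19 (SE 0.11) and -0.40 after median-of-ratios scaling. *Oat* (ENSMUSG00000030934, chr7:132557478-132576398, minus strand), the ornithine aminotransferase of mitochondria, was at 51.1, 52.1 and 58.3 FPKM in WT and at 58.7, 57.0 and 63.9 FPKM in KO. WT replicate 3 and KO replicate 2 overlapped, and the log2 difference of 0.15 (SE 0.09) became -0.06 after median-of-ratios scaling. That scaling moved the median of all tested genes from 0.19 to -0.0018, and upper-quartile scaling moved it to 0.11. The ratio of *Arg1*, which makes ornithine, to *Odc1*, which uses it, was 6.17, 6.44 and 5.97 in WT and 0.0158, 0.0165 and 0.0134 in KO.

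**Figure D2:**
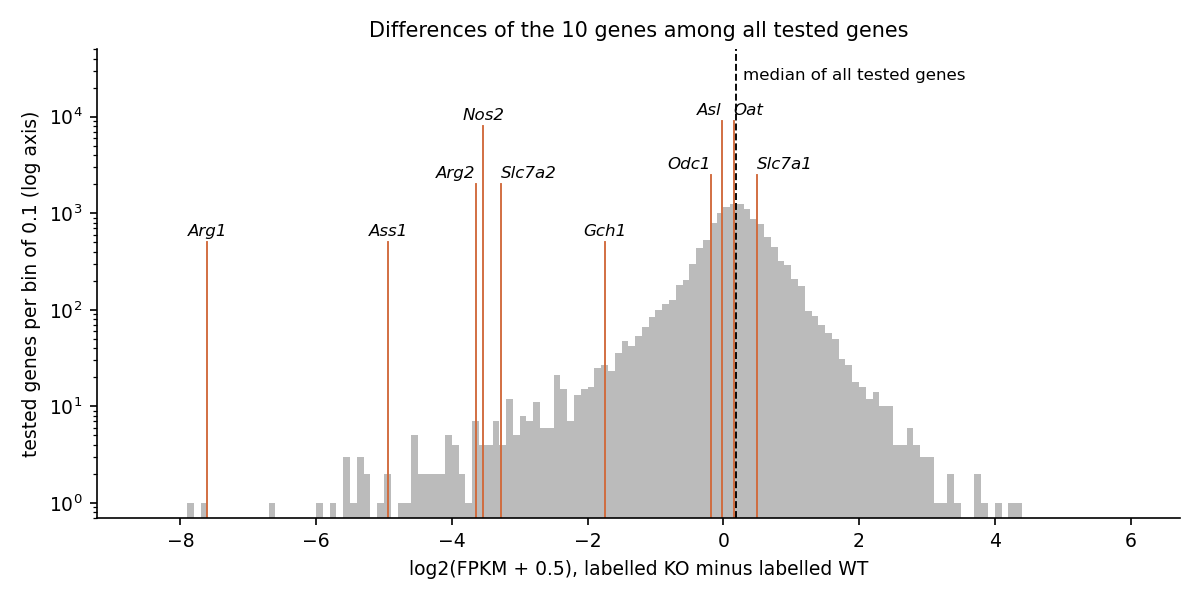
Number of tested genes per bin of 0.1 in log2(FPKM + 0.5), KO minus WT (log axis, grey), with orange lines at the 10 genes and a dashed line at the median of all tested genes, 0.19. *Arg1* at -7.60 and *Ass1* at -4.94 lie in the sparse left tail, and *Asl*, *Odc1*, *Oat* and *Slc7a1* lie within the bulk.

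Set in order of level, the libraries labelled WT had *Ass1* above *Arg1*, then *Oat* and *Odc1*, and each of these was above the next in all 3 libraries and without overlap. *Slc7a2*, *Arg2*, *Gch1* and *Asl* followed between 6.94 and 19.2 FPKM, and the range of *Slc7a2* covered those of the other three. *Nos2* and then *Slc7a1* came last, and the lowest *Nos2* value of 3.94 FPKM was still above the highest *Slc7a1* value of 3.63 FPKM. In the libraries labelled KO, *Oat*, *Odc1*, *Asl* and *Ass1* came first in that order, *Slc7a1*, *Gch1* and *Slc7a2* followed, and *Arg2*, *Arg1* and *Nos2* were last. *Slc7a2* overlapped with *Arg2* there, and *Arg2* with *Arg1*.

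**Figure D3:**
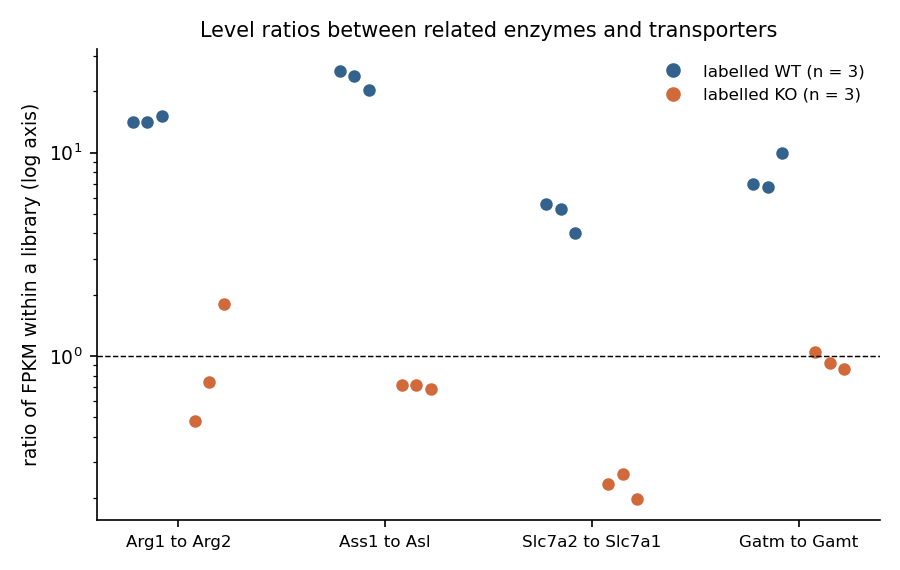
Ratio of FPKM between related genes in each library (log axis), blue for libraries labelled WT and orange for those labelled KO. The dashed line marks equal levels, and *Ass1* to *Asl* runs from 20.4 to 25.3 in WT and from 0.684 to 0.717 in KO.

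The genes whose profile over the 6 libraries was most like that of *Arg1* were *Acod1*, which makes itaconate, and the chemokines *Cxcl9* and *Cxcl3*. The measure was the root mean square difference of log2(FPKM + 0.5) after centring each gene, among 10566 genes of at least 1 FPKM on average, and it was 0.17, 0.48 and 0.85. *Acod1* was at 153.0, 155.3 and 140.5 FPKM in WT and at 0.172, 0.164 and 0.103 FPKM in KO. Those most like *Nos2* were *Oas3*, an antiviral oligoadenylate synthetase, *Ifi213* of the p200 family and *Tgm2*, a transglutaminase, at 0.15, 0.16 and 0.19. The likeness was measured on this scale only, where the added 0.5 bounds the fall of genes listed at or near 0 in KO. The log2 difference of *Nos2* was -3.53 on this scale and -5.62 with a pseudocount of 0.1, so its neighbours need not share its fold. *Tgm2* was at 333.0, 330.2 and 240.6 FPKM in WT and at 33.2, 33.0 and 27.0 FPKM in KO, with replicate 3 the lowest of each group. The neighbours were picked by likeness over these same libraries, so a shared pattern of replicates is a description only.

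Beyond the 10 genes, 59 genes of the same pathways were listed from textbook knowledge, of which 44 were tested with limma and adjusted over all tested genes (Benjamini-Hochberg, limit 0.05). Of the 44, 16 rose in KO, 6 fell and 22 did not pass, beside 27.1% of all tested genes that rose and 10.5% that fell. After median-of-ratios scaling the split was 12 and 10, and over all genes it moved from 3619 higher and 1408 lower to 2144 and 2221. Their median log2 difference was 0.15, against 0.19 for all tested genes.

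Of 11 genes of nitric oxide signalling, 5 were tested, 4 rose and 0 fell, or 3 and 0 after either scaling. *Nostrin*, which controls the traffic of endothelial nitric oxide synthase, rose from 1.17, 2.16 and 1.09 FPKM to 7.93, 6.37 and 7.97 FPKM (log2 difference 2.04, SE 0.22, adjusted p = 0.000558). *Ddah2*, paralog of the *Ddah1* enzyme that clears methylarginine inhibitors of the synthases, rose from 5.45, 4.95 and 6.74 FPKM to 11.9, 9.71 and 14.4 FPKM (1.00, SE 0.17, adjusted p = 0.00431). Both genes were thus higher in every library labelled KO. *Prmt1*, which methylates arginine in proteins and was the most abundant of the 5, had a log2 difference of 0.14 (SE 0.12, adjusted p = 0.391).

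Of 12 genes of the urea cycle and of arginine transport, 6 were tested, 1 rose and 1 fell, and after median-of-ratios scaling 0 rose and 2 fell. The one that fell was *Slc3a2*, the heavy chain that amino acid exchangers of the *Slc7a* family need, at 196.9, 181.9 and 198.3 FPKM in WT and 75.8, 64.8 and 66.7 FPKM in KO (-1.47, SE 0.09, adjusted p = 5.39e-05). *Slc7a7*, a light chain that exports arginine, had a log2 difference of 0.46 (SE 0.08, adjusted p = 0.0059). Of 7 other BH4 genes, 5 were tested, 3 rose and 0 fell, while *Gch1* itself was lower in KO. After median-of-ratios scaling *Pts* no longer passed, and 2 rose and 0 fell. *Pcbd2*, a pterin dehydratase of BH4 recycling, rose from 12.1, 7.92 and 10.8 FPKM to 20.8, 22.1 and 23.9 FPKM (1.10, SE 0.16, adjusted p = 0.00209). *Pts*, the enzyme after *Gch1*, rose by 0.56 (SE 0.15, adjusted p = 0.0273) and was chosen after its values were seen. *Qdpr*, which recycles BH4 and was the most abundant of the 5, had a log2 difference of -0.07 (SE 0.26, adjusted p = 0.851).

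Of 18 polyamine genes, 17 were tested, 3 rose and 3 fell, or 2 and 6 after either scaling. *Smox*, which oxidises spermine, fell from 22.2, 21.02 and 18.5 FPKM to 9.996, 9.27 and 8.46 FPKM (-1.11, SE 0.11, adjusted p = 0.000362). *Atp13a2*, which exports polyamines from lysosomes, rose from 38.5, 34.7 and 30.9 FPKM to 76.4, 81.5 and 82.3 FPKM (1.20, SE 0.10, adjusted p = 0.000208). *Eif5a*, the translation factor modified with spermidine, had the highest level, and its log2 difference was -0.29 (SE 0.10, adjusted p = 0.0512), and it passed the limit after either scaling. The near-identical copies *Amd1* and *Amd2* may share reads, and neither passed, although *Amd1* did after either scaling (lower in KO).

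Of 11 genes of proline, glutamate and creatine, 5 rose and 2 fell, and so they did after either scaling. *Gatm*, which takes the amidino group of arginine to begin creatine synthesis, fell from 28.1, 29.7 and 31.9 FPKM to 9.73, 8.72 and 9.19 FPKM (-1.65, SE 0.09, adjusted p = 2.87e-05). *Gamt*, the second enzyme, rose from 4.03, 4.41 and 3.17 FPKM to 9.29, 9.44 and 10.7 FPKM (1.24, SE 0.13, adjusted p = 0.000571). The ratio of *Gatm* to *Gamt* was accordingly 6.97, 6.74 and 10 in WT and 1.05, 0.923 and 0.861 in KO. *Slc6a8*, the creatine transporter, fell from 58.5, 60.6 and 51.7 FPKM to 22.8, 34.2 and 20.3 FPKM (-1.16, SE 0.19, adjusted p = 0.00387). *Glul*, glutamine synthetase and the most abundant of these genes over the 6 libraries, rose by 0.85 (SE 0.07, adjusted p = 0.000184).

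Of 16 genes known to act on transcription of *Arg1* or *Nos2*, 3 rose, 5 fell and 8 did not pass, and after median-of-ratios scaling 1 rose and 7 fell. *Irf1*, an interferon-induced factor that acts on *Nos2*, fell from 45.5, 44.95 and 52.4 FPKM to 11.1, 11.6 and 11.98 FPKM, or by 1.99 on the log2 scale (SE 0.09, adjusted p = 1.44e-05), as did the receptor *Tlr2* (-1.99, SE 0.08, adjusted p = 9.94e-06). *Cebpb*, a factor that binds the *Arg1* enhancer, fell from 431.3, 420.9 and 577.5 FPKM to 125.1, 116.9 and 163.1 FPKM (-1.82, SE 0.17, adjusted p = 0.00037), and *Hif1a* fell by 1.30 (SE 0.08, adjusted p = 4.21e-05). These 4 genes were lower in every library labelled KO. *Ifngr1*, a chain of the interferon gamma receptor, rose from 13.4, 15.2 and 11.2 FPKM to 57.8, 60.5 and 43.9 FPKM (1.98, SE 0.16, adjusted p = 0.000191). *Il10ra* was at 9.84, 13.8 and 12.3 FPKM in WT and 19.7, 20.3 and 43.8 FPKM in KO (1.10, SE 0.31, adjusted p = 0.0321), a call lost with no filter on low values, after median-of-ratios scaling and without any 1 of the libraries labelled WT. Its log2 difference was 0.72 without KO replicate 3. *Stat6*, which carries the signal of interleukin 4, had a log2 difference of 0.44 (SE 0.12, adjusted p = 0.0286), which also did not pass after either scaling.

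**Figure D4:**
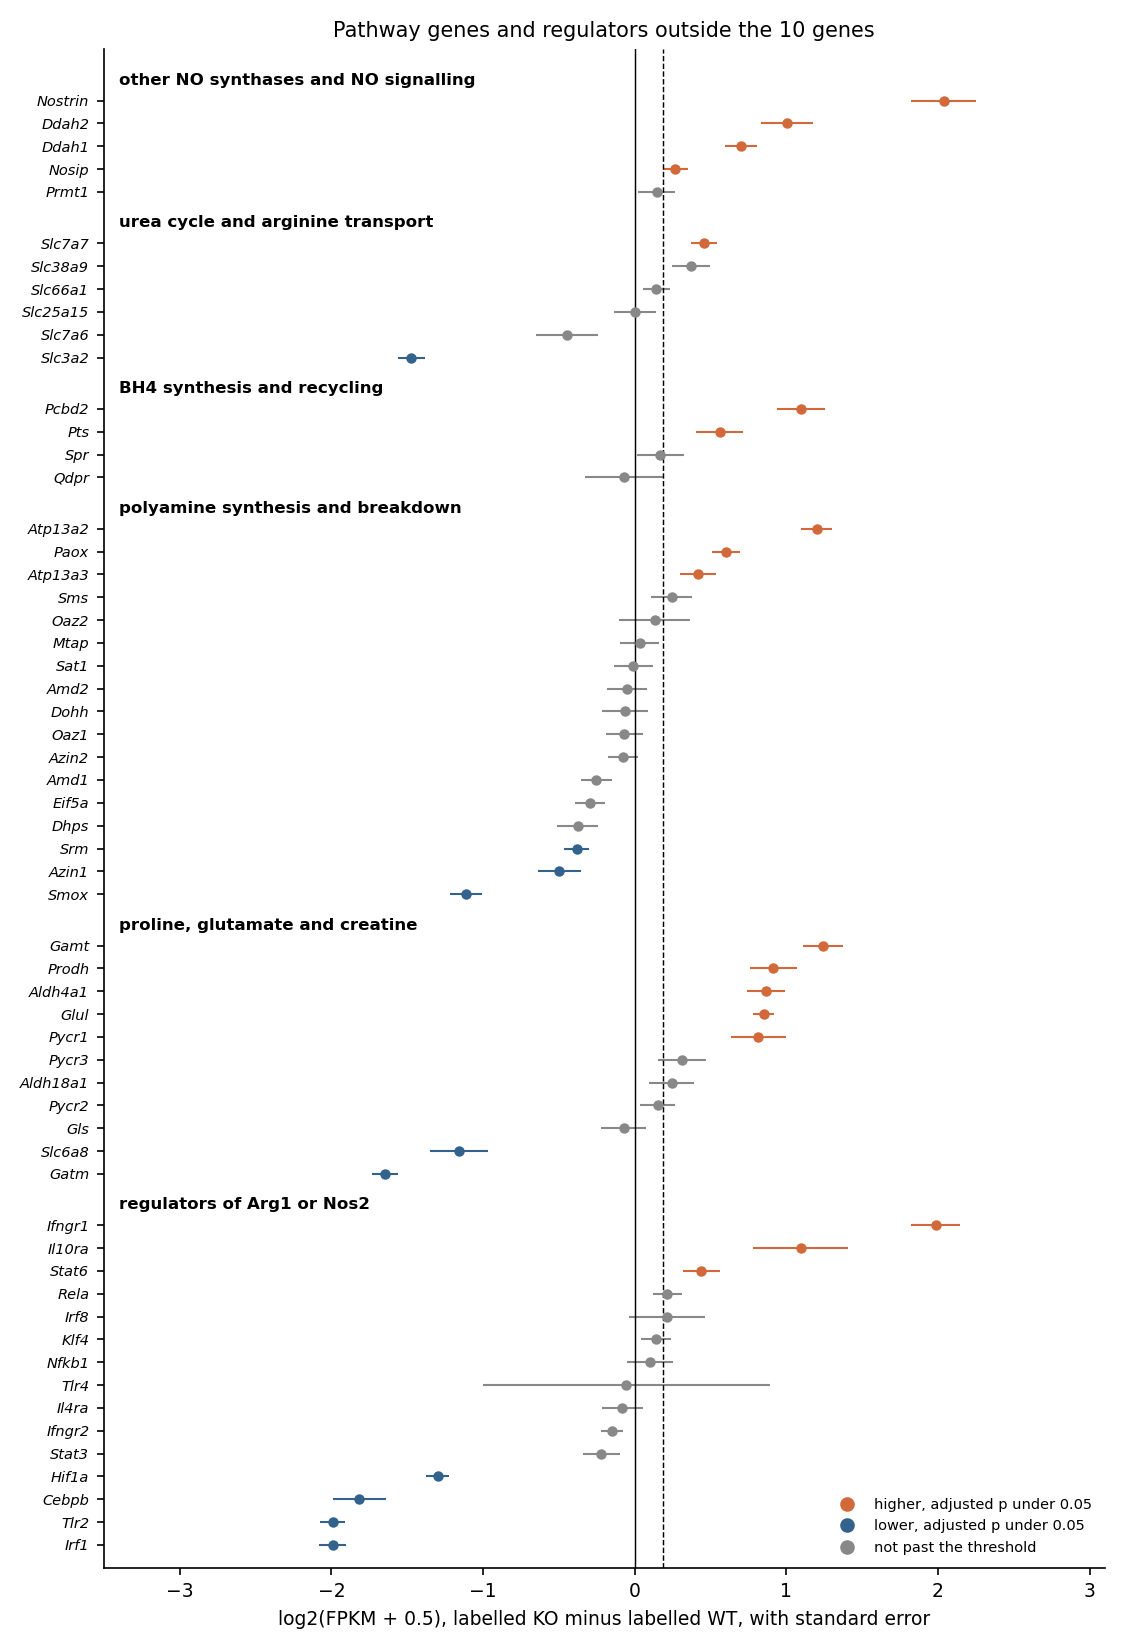
Log2 difference of FPKM + 0.5, KO minus WT, with its standard error for the tested pathway and regulator genes reported here, grouped by role (orange, higher and blue, lower at an adjusted p under 0.05; grey, not past this limit). The dashed line marks the median of all tested genes, 0.19, and *Irf1* and *Tlr2* at -1.99 and *Nostrin* at 2.04 are the outermost genes drawn.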

How the data were processed

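The file of the authors holds FPKM for every gene in each library, which corrects for transcript length and library total. The processing notes name fastp 0.17.1, HISAT2 2.1.0, DESeq2 1.18.1 and R 3.4.3, and the counter, annotation and genome build are not given in the sources used here. The labels and the study's methods name different extraction reagents, library kits and sequencers. Of 55335 identifiers, 55154 (99.7%) matched GENCODE M21 (GRCm38), the source of symbols, positions and lengths. Low values implied a depth between 17617855 and 20287849 fragments per library, but only 37.6% to 40.7% of them lay within 0.1 of whole multiples of a step, so the values were not turned into counts for a count test.

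The 13367 genes that averaged 0.5 FPKM or more were fitted with limma 3.58.1 (R 4.3.3) on log2(FPKM + 0.5), two-sided, using eBayes with trend and no covariates, followed by Benjamini-Hochberg adjustment. The alternatives were other pseudocounts, filters and scalings, a robust variance, a replicate block and each library left out. Tested on simulated data for this comparison, over 13367 genes with 200 changed, it recovered 64.8% of 108 genes changed by 1 and 87% of 92 changed by 2 on the log2 scale, with 7 false calls. The simulated noise was independent between genes, without a shift between libraries. In the data far more genes were called, 3619 higher and 1408 lower. These rates therefore do not describe the calls made in the data. The genes described and all lists were chosen with earlier results of these data known. Named were the 10 genes, the listed genes with an adjusted p under 0.05 and a log2 difference of at least 1 in size or else the most abundant of each list, *Cd177*, markers, and 3 profile neighbours each of *Arg1* and *Nos2*. *Nos1*, *Nos3*, *Slc7a7*, *Pts*, *Stat6*, *Amd1* and *Amd2* were added after their values were seen. Dendritic cell markers summed to at most 0.52 FPKM. Spinal cord cell markers summed to between 246.3 and 380.5 FPKM in WT and between 315.4 and 369.4 FPKM in KO, mostly *Col1a1*. Some listed genes enter the counts but are not reported here by name. Microglia were not analysed here. Python 3.11.15 and pandas 2.3.3 were used for tables.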

Additional observations from a re-analysis of the deposited data

How the results depend on the processing

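Differences of the 10 genes gave 148 values under 15 alternatives. None of the calls of a direction without overlap turned, and 18 values moved by over 1 SD, all with another pseudocount or scaling. The median difference of the 10 genes was -2.80 with a pseudocount of 0.1, -2.13 with 1 and -2.69 after median-of-ratios scaling, and lay between -2.67 (without WT replicate 3) and -2.38 with 1 library left out. With 1 library left out, the count of genes higher without overlap was 0 to 1. The gene was *Slc7a1* without WT replicate 2 or KO replicate 3, and *Oat* without WT replicate 3 or KO replicate 2. The count was 2 without both libraries numbered 3, an alternative chosen after seeing the data. Fewer libraries separate more easily, and the share of all tested genes without overlap was not counted in these settings. After median-of-ratios scaling, 10 pathway genes and 2221 of all genes were lower, and 1 regulator and 2144 of all genes were higher. With a mean of at least 5 FPKM, which tests fewer genes, 10 pathway genes and 1756 of all genes were higher. With no filter, 1 regulator was higher. The replicate number as a block left 10 pathway genes lower. Same-numbered libraries had deviation correlations of 0.116, 0.036 and 0.264, the last being the highest of all pairs. WT replicate 1 correlated best with KO replicate 2 (0.16). With 3 libraries per group, the deviations from a group mean depend on each other. These values therefore cannot decide whether the numbers pair the libraries. Among the called pathway and regulator genes, 16 had a log2 difference of at least 1 in size. Of their 239 values, 5 were no longer called, all of *Il10ra*, and 0 reversed. Called genes with smaller differences were not in this tally. Some of them lost their call after median-of-ratios scaling, among them *Slc7a7*, *Pts* and *Stat6*. The cause of these changes was not tested. The low fragment numbers of *Arg1*, *Arg2* and *Nos2* in KO limit how well their differences are known.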
